A study of Mus musculus with 4 samples.

Results

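Cells in which NPMc+ and Flt3-ITD were present together were compared with cells carrying Flt3-ITD alone. The members are the 5714 kept cells of 2 libraries, 3321 labelled NPMc+/Flt3-ITD and 2393 labelled Flt3-ITD, out of 10608 kept cells in the 4 libraries of the series. The animals were C57BL/6, 8 to 11 weeks of age; their crushed marrow was sorted for long-term hematopoietic stem cells (LT-HSCs), which were profiled with 10x 3' v2 chemistry, in which each captured transcript is counted once as a unique molecular identifier (UMI). The series holds 1 library for each of 4 genotypes: those with 1 lesion (NPMc+ or Flt3-ITD), that with both, called double-mutant below, and the MxCRE reference control, Mx. The labels do not say how many animals were pooled or, for the mutant lines, whether they also carried MxCRE. Because there was 1 library a side, no variance between animals could be estimated and no test was made. Intervals given below are 95% exact intervals (Clopper-Pearson) that cover counting error only.

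NPMc+ is the cytoplasmic mutant form of nucleophosmin, a nucleolar chaperone, and is among the commonest lesions of acute myeloid leukemia. Flt3-ITD is an internal tandem duplication in the receptor tyrosine kinase Flt3, which makes it signal without its ligand, in part through STAT5 and RAS-MAPK. The 2 lesions often occur together in patients, and both are carried by blood stem and progenitor cells. LT-HSCs are the rare, mostly quiescent marrow cells that can rebuild all blood lineages, and on the way to lymphoid fates their descendants switch on Flt3, Dntt and Cd48 before committing to a lineage.

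Kept barcodes had no fewer than 1000 UMIs and 500 genes, and no more than 10% of UMIs from mitochondrial genes. UMIs were then summed over cells and scaled to counts per 1000000 UMIs of that library (CPM). Kept cells held 21982925 UMIs in Flt3-ITD and 26965367 in the double mutant, with medians of 8661 and 7323 per cell. Of all deposited barcodes, 25 sequences occurred in both libraries, 10 of them kept in both. Several features of the libraries moved with the comparison. Ribosomal protein genes took 21.05% of double-mutant UMIs, against 28.9% with Flt3-ITD alone, 29.4% with NPMc+ alone and 30.9% for Mx. Among cells with UMIs of only Y-linked genes or only Xist, male cells made up 56.1% in Flt3-ITD and 93.1% in the double mutant, so both sexes contributed to each library. The double-mutant library also held a group of cells with T-lineage transcripts that was nearly missing from the other libraries. The part of these features in the gene-level differences was not tested. Values with that group left out, and for male cells, are given where they bear on a result.

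The HSC check markers were detected in both libraries, 10 of 10, and summed to 424 CPM in Flt3-ITD and 239 CPM in the double mutant. The stromal markers summed to 1.27 and 0.482 CPM, with 3 of 6 at 0 in each library. Markers of T or NK cells summed to 431 and 1837 CPM, with 1 of 15 at 0 in each library, and those of multipotent or lymphoid-primed progenitors to 936 and 2275 CPM. Those of mast cells or basophils summed to 52.3 and 659 CPM. The erythroid markers summed to 1445 and 858 CPM, the granulocyte markers to 703 and 612 CPM and the B cell markers to 68.4 and 58.9 CPM. Megakaryocyte markers summed to 279.8 and 236 CPM, those of monocytes, macrophages or dendritic cells to 371 and 353 CPM, and endothelial markers to 65.8 and 102 CPM.

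Genes were compared where at least 1 of the libraries reached 20 CPM, a floor met by 6746 genes. A gene under the floor in 1 of the libraries enters through the other, where it is higher, so its direction follows from the floor. List counts below include such genes, in both directions. At 2-fold, 289 of these (4.28%) were higher in the double mutant and 301 (4.46%) were lower. At 1.5-fold, the size used below to count list members, 13.7% of genes were higher and 7.35% lower. The median gene was 0.28 higher on the log2 scale in the double mutant, and 0.11 higher after TMM scaling, which also moved the split at 2-fold to 216 higher and 381 lower. A difference near 0.28 is therefore that of a typical gene. TMM scaling lowered every log2 ratio by the same amount, and shares of all genes at 1.5-fold were not counted after it. List counts given after TMM scaling therefore lack such a share and are to be read beside the median of 0.11. All log2 ratios below are double mutant over Flt3-ITD on the CPM scale unless another pair is named.

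**Figure D1:**
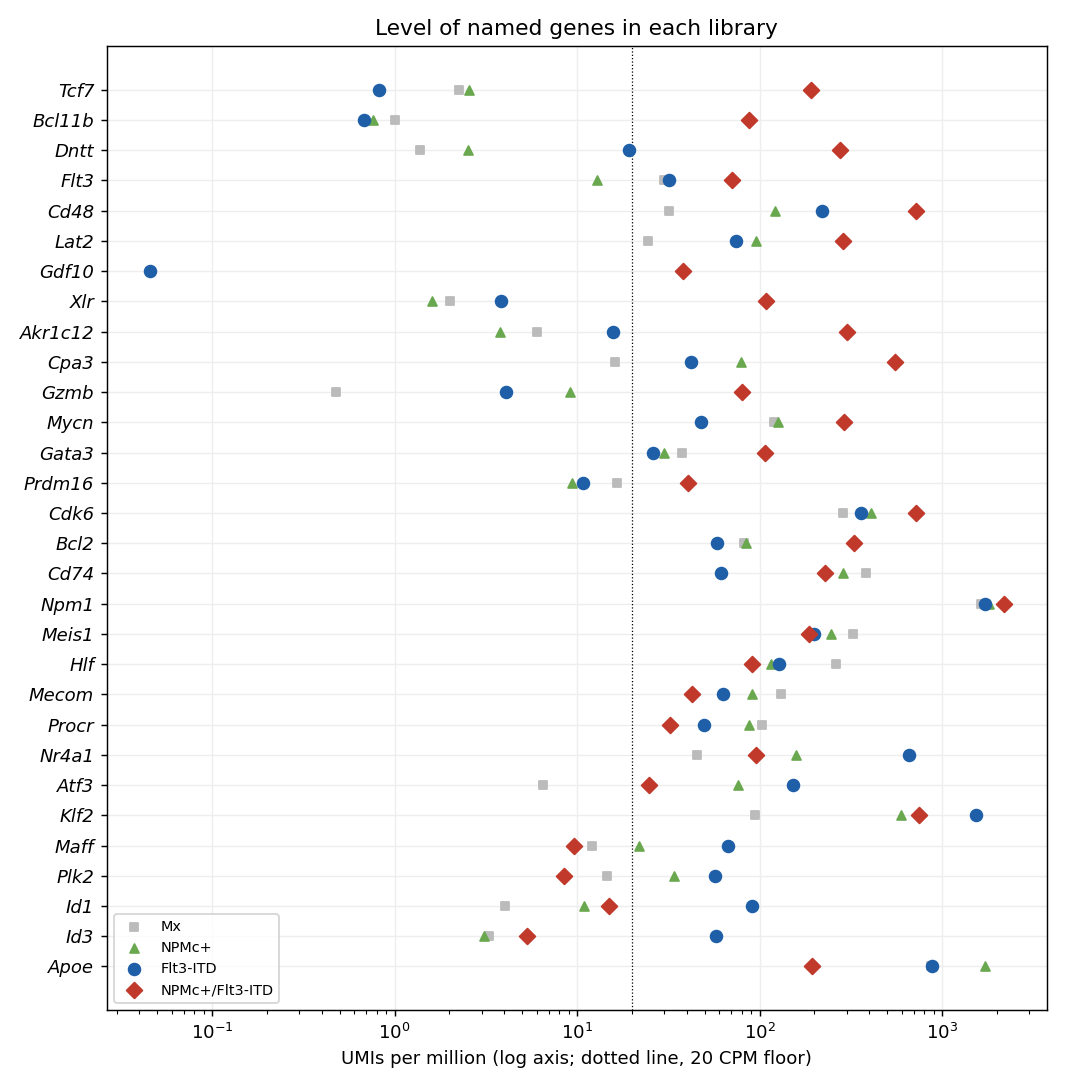
CPM (log axis) of 30 genes in the 4 libraries, 1 point per library, with the 20 CPM floor dotted. Tcf7, Bcl11b, Gdf10 and Xlr sit at or below 3.82 CPM in Flt3-ITD and between 37.9 and 192 CPM in NPMc+/Flt3-ITD, while Nr4a1, Atf3, Maff, Plk2, Id1 and Id3 lie lower there than in Flt3-ITD. Gdf10 had no UMI in Mx or NPMc+ and has no point for them.

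A group of cells set the double-mutant library apart. Tcf7 and Bcl11b encode transcription factors needed for commitment to the T lineage, and both were counted in the same cell in 645 of 3321 double-mutant cells, or 19.4% (18.1 to 20.8%). The same was seen in 3 of 2393 Flt3-ITD cells, or 0.125%, in 3 Mx cells and in 2 NPMc+ cells. A UMI of either gene was found in 1265 double-mutant cells and in 18 Flt3-ITD cells. Tcf7 (chr11:52252371-52283014 in mm10) stood at 0.819 CPM in Flt3-ITD and 192 CPM in the double mutant. Bcl11b (chr12:107910403-108003602) stood at 0.682 and 87.9 CPM. Since these 2 genes choose the group, their levels in it describe the choice. In the whole library the T-lineage list, which holds both, had 20 of 46 members at the floor. Of these, 17 passed 1.5-fold upwards and 1 downwards, with a median log2 ratio of 3.53. Tcf7, Bcl11b, Themis (0.182 CPM in Flt3-ITD) and Trdc (0.364 CPM) entered only through the double mutant, so their direction was fixed by the floor. The same held for further members, among them Tcrg-C2 (1.23 CPM in Flt3-ITD), Tcrg-C4 (1.68 CPM) and Tcrg-C1 (4.82 CPM). The count of higher members and the median therefore rest in part on the floor. Without the group the list gave 11 and 1 of 15 (median 2.63), and without cells holding either factor 8 and 1 of 13 (median 1.52). Over all genes, the setting without cells holding either factor gave 831 higher and 467 lower of 6707 at 1.5-fold, with a median of 0.28.

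Most other T-lineage genes had higher levels in the Tcf7+Bcl11b+ cells than in the rest of the library. Without the 2 genes that choose the cells, 23 of 25 T-lineage list members at the floor passed 1.5-fold upwards and 1 downwards; over all 7001 genes at the floor in these cells, 13.6% were higher and 12.6% lower. The median log2 ratio of the 25 was 3.63, against -0.01 over all genes. Lck, the Src-family kinase of T cell signalling, stood at 733 CPM against 99.3 CPM in the other cells. Gata3, a factor of T-lineage specification, stood at 510.4 and 43.9 CPM, and Themis, a thymocyte signalling protein, at 226 and 8.37 CPM. Themis and other members reached the floor only in the group, and for such genes the direction follows from the floor. Dntt, the polymerase that adds bases at antigen receptor joints, stood at 990.2 and 163 CPM. The CD3 chains, signalling subunits of the T cell receptor complex, differed in level. Cd247, the zeta chain, stood at 76.1 and 3.61 CPM. Cd3e, at 0.818 and 0.0858 CPM, Cd3g, at 6.55 and 0.601 CPM, and Cd3d, at 5.46 and 0.343 CPM, were above the other cells but stayed under the floor.

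Stem cell genes were low in the Tcf7+Bcl11b+ cells, with 23 of 31 LT-HSC list members at the floor at least 1.5-fold below the other double-mutant cells (12.6% over all genes), 3 above and a median log2 ratio of -1.96. Hlf, a stem cell transcription factor, stood at 17.5 CPM in them and 102 CPM in the other cells. Mecom, which sustains HSC self-renewal, stood at 10.4 and 48.03 CPM, and Procr, the EPCR surface marker of HSCs, at 6.82 and 36.3 CPM. Kit, the stem cell factor receptor, was at 145 and 99.4 CPM, so the group kept this progenitor marker. Cpa3, a mast cell protease also made by early progenitors, reached 2508 CPM in the group, 10.4-fold above the other cells. The group was shallower, with a median of 4809 UMIs per cell against 8033.5, and it supplied 13.6% of the library's UMIs. Of the group's cells with a sex call, 503 were male and 3 female, which is 20.7% of the library's male cells and 1.68% of its female cells.

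Leaving these cells out of both libraries kept most of the differences. Then 228 of 6702 genes were at least 2-fold higher and 295 lower; 207 of the 289 higher genes and 289 of the 301 lower genes were still at the floor and past 2-fold. At 1.5-fold, 12.6% were higher and 7.21% lower. The Tcf7+Bcl11b+ cells held most of the double-mutant UMIs of 35 of the 289 higher genes. In the scatter of ratios with and without the group, genes with a large share of UMIs in it mostly lie off the diagonal. This follows largely from how the axes are built, since the y axis leaves those UMIs out.

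**Figure D2:**
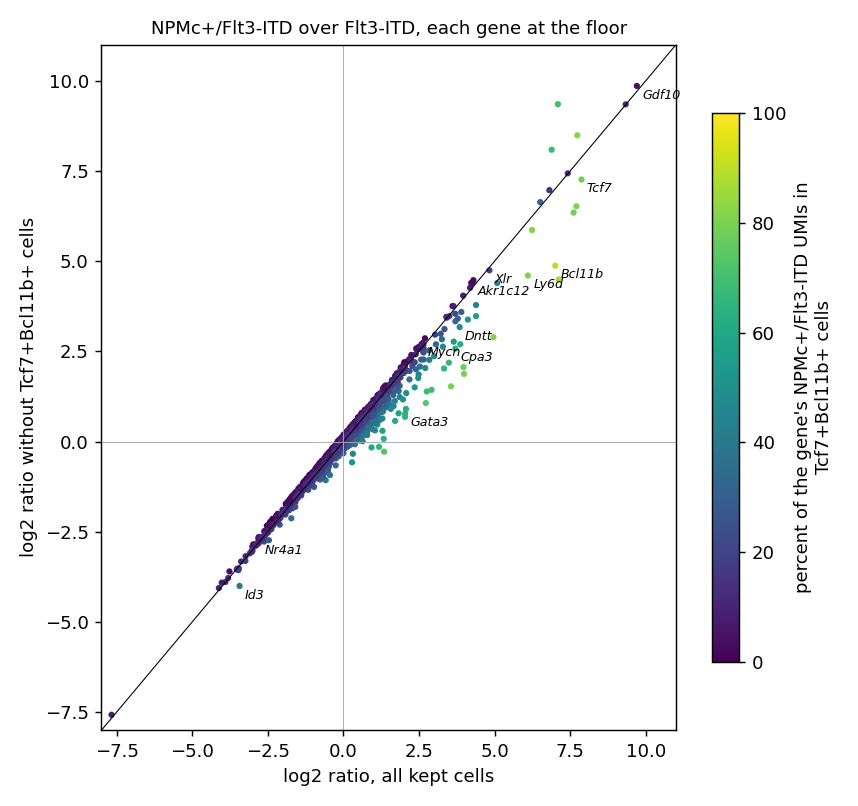
log2 ratio of each gene at the floor over all kept cells (x axis) and without the Tcf7+Bcl11b+ cells (y axis), coloured by the percent of the gene's NPMc+/Flt3-ITD UMIs found in those cells. Dntt moves from 3.85 to 3.17 and Gata3 from 2.04 to 0.77, while Mycn (2.59 and 2.71), Akr1c12 (4.27 and 4.40) and Nr4a1 (-2.78 and -2.77) stay on the diagonal.

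T cell receptor gamma and delta transcripts were counted beyond the group too. Tcrg-C1, a gamma constant gene, had 106 UMIs in Flt3-ITD and 11848 in the double mutant, or 4.82 and 439 CPM, a 91.1-fold difference (75.3 to 111). Only 31.5% of its double-mutant UMIs lay in Tcf7+Bcl11b+ cells. With every cell set to 3000 UMIs, a Tcrg-C1 UMI was found in 71.7% of the group, in 39.8% of the other double-mutant cells and in 7 of 16 erythroid cells of that library, against 0.9195% of Flt3-ITD cells. Without thinning, 61.04% of all double-mutant and 1.88% of Flt3-ITD cells had one. The share in the other cells was no higher than in these few erythroid cells, which should lack the gene. In CPM over all cells of a sex, Tcrg-C1 stood at 475 in male and 102 in female double-mutant cells. Whether the UMIs outside the group come from those cells or from free RNA was not tested. Tcrg-C2 and Tcrg-C4 stood at 168 and 199 CPM against 1.23 and 1.68 CPM, but the gamma constant genes are near-identical copies between which reads can be split. Trdc, the delta constant gene, stood at 77.5 CPM against 0.364 CPM, with 81.8% of its UMIs in the group.

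Genes of multipotent and lymphoid-primed progenitors were higher as a list. Of 46 members 30 were at the floor; 20 passed 1.5-fold upwards and 0 downwards. The median log2 ratio was 0.73 against 0.28 for all genes. Some higher members, among them Dntt (19.2 CPM in Flt3-ITD), Lck (14.8 CPM), Satb1 (7.87 CPM) and Ly6d (1.09 CPM), entered only through the double mutant. Their direction was fixed by the floor. Without the Tcf7+Bcl11b+ cells the counts were 12 higher, 0 lower of 28, with a median of 0.48. Without every cell that had a UMI of either factor they were 11 and 0 of 27, with a median of 0.43, against 831 and 467 of 6707 and 0.28 over all genes. Summed per cell at 3000 UMIs, the list's members at the floor gave a median of 17 UMIs in Flt3-ITD cells, 25 in the other double-mutant cells and 50 in Tcf7+Bcl11b+ cells.

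Dntt (chr19:41029275-41059525) was at 1.38 CPM for Mx, 2.51 for NPMc+ alone, 19.2 for Flt3-ITD alone and 276 for the double mutant, a 14.4-fold difference between the last pair (13.03 to 15.9). Its 422 UMIs in Flt3-ITD and 7439 in the double mutant were spread unevenly, with 48.8% of the latter in Tcf7+Bcl11b+ cells. Dntt was 13.1-fold higher in male cells and 2.51-fold higher in female cells (14.6 and 36.6 CPM in the latter). A Dntt UMI was found at 3000 UMIs per cell in 3.86% of Flt3-ITD cells (3.09 to 4.76%), 25.99% of the other double-mutant cells and 76.5% of the group; unthinned, 8.57% of Flt3-ITD and 52.8% of all double-mutant cells had one. Erythroid cells gave 1 of 16 in the double mutant and 0 of 20 in Flt3-ITD, with median depths of 14207.5 and 12788.5 UMIs before thinning. These cells are too few to fix a background level, and whether the 25.99% share lay above it was not tested. Cd48, a surface protein gained as HSCs become multipotent progenitors, stood at 31.99, 121, 220.3 and 720.3 CPM across Mx, NPMc+, Flt3-ITD and the double mutant. Unlike Dntt it was lower in Tcf7+Bcl11b+ cells (346 CPM) than in the others (779 CPM), and its log2 ratio was 1.71 with them and 1.82 without them. Flt3 itself stood at 31.8 and 70.9 CPM, 2.23-fold higher (2.04 to 2.43) with both lesions; 3' counts do not separate the duplicated from the normal allele.

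Other members differed in how much of the gain lay in the group. Satb1, a chromatin organiser of lymphoid genes, was 2.73 higher on the log2 scale over all cells, 1.07 without the group and 0.47 without all cells holding either factor. Lck kept 2.77 and 2.42. Ly6d, a marker of lymphoid-committed progenitors, stood at 1.09 and 74.9 CPM with 80.9% of its UMIs in the group. Plac8 (1088 and 2709.6 CPM) and Cd53, a tetraspanin of white cells (47.7 and 153 CPM), stayed 0.94 and 1.40 higher without it.

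For several genes with large ratios, most of the double-mutant UMIs lay in the remaining cells. Gdf10, a secreted factor of the TGF-beta superfamily (chr14:33923587-33937983), had 0 UMIs in Mx and NPMc+, 1 in Flt3-ITD and 1023 in the double mutant. That is 0.0455 and 37.9 CPM, a ratio of 834 with a counting interval of 149 to 32972, and 3.91% of the UMIs lay in Tcf7+Bcl11b+ cells. Xlr, an X-linked lymphocyte-regulated gene with close paralogs, stood at 2.01, 1.595, 3.82 and 109 CPM across Mx, NPMc+, Flt3-ITD and the double mutant. Only the last library was above the floor. Akr1c12, an aldo-keto reductase, stood at 15.6 and 302 CPM, and its near-identical neighbour Akr1c13 at 78.5 and 412 CPM, so the split between the pair is uncertain. A UMI of Akr1c12 was found in 4.41% of Flt3-ITD and 50.02% of the other double-mutant cells at 3000 UMIs per cell, and in 4 of 16 double-mutant and 1 of 20 Flt3-ITD erythroid cells; unthinned, it was in 11.6% of Flt3-ITD and 62.9% of double-mutant cells. The levels of these genes differed by sex of the cells. In male and female double-mutant cells Gdf10 stood at 42.1 and 3.27 CPM, Xlr at 116.9 and 9.81 CPM and Akr1c12 at 330 and 63.4 CPM. In female Flt3-ITD cells the 3 genes stood at 0, 1.57 and 10.1 CPM.

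Gzmb, the cytotoxic protease granzyme B, stood at 4.09 and 80.6 CPM, 19.7-fold higher (15.9 to 24.6), with 2.44% of its UMIs in Tcf7+Bcl11b+ cells. Gzma differed in where it lay: it stood at 0.318 and 44.3 CPM with 86.01% in the group. Clec12a, a C-type lectin of myeloid progenitors, stood at 5.91 and 76.8 CPM, and Gstp3, a glutathione transferase with close paralogs, at 0.728 and 24.8 CPM. Lat2, an adaptor of myeloid and mast cell signalling, stood at 74.7 and 285 CPM and was found in 19.3% and 52.4% of cells at 3000 UMIs (38.1% and 75.9% unthinned), and in 1 of 20 and 5 of 16 erythroid cells. Pmaip1, which encodes the cell death protein Noxa, stood at 2.41 and 24.5 CPM.

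**Figure D3:**
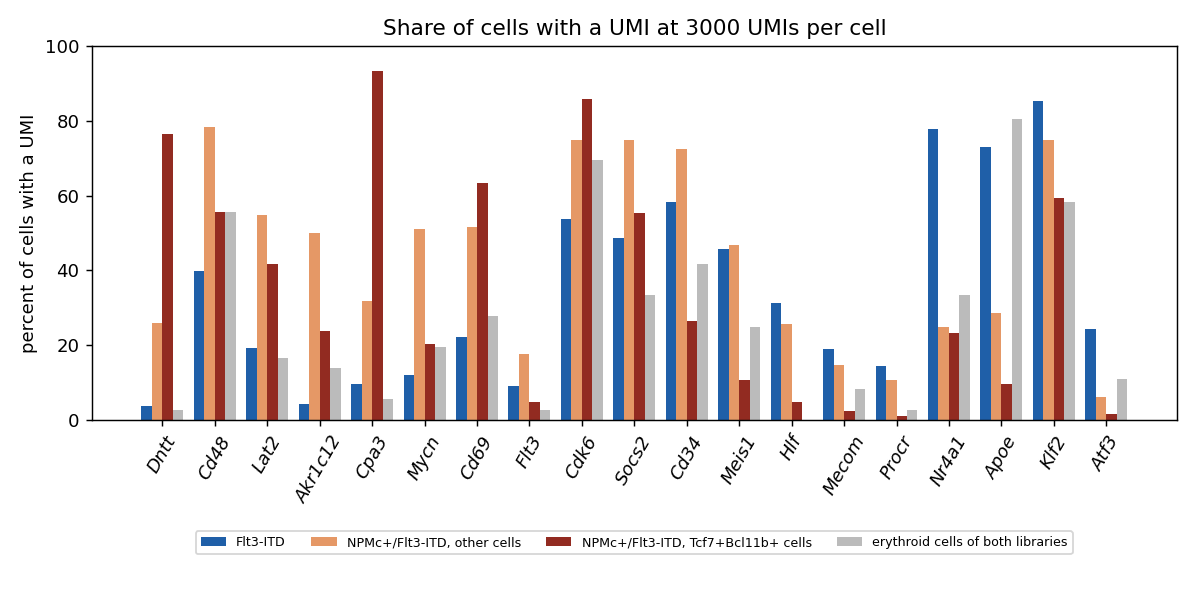
Percent of cells with a UMI of each gene at 3000 UMIs per cell in 2175 Flt3-ITD cells, 2443 other and 548 Tcf7+Bcl11b+ NPMc+/Flt3-ITD cells, and 36 erythroid cells of both libraries. Dntt and Cpa3 are most frequent in Tcf7+Bcl11b+ cells (76.5% and 93.4%), Mycn and Akr1c12 in the other NPMc+/Flt3-ITD cells (51.1% and 50.02%), and Nr4a1 in Flt3-ITD cells (77.9%).

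Stem cell identity genes did not move as a unit. Of 49 LT-HSC list members 32 were at the floor; 5 passed 1.5-fold upwards and 11 downwards. The median log2 ratio was -0.28. Without the Tcf7+Bcl11b+ cells 8 were higher and 10 lower, with a median of -0.16. Summed per cell at 3000 UMIs, the members gave a mean of 28.8 UMIs in Flt3-ITD cells, 29.7 in the other double-mutant cells and 10.7 in the Tcf7+Bcl11b+ cells, so without the group the sum and the median gene differ in sign. Such a sum is weighted to abundant members. Ifitm1 stood at 2310 CPM in Flt3-ITD, 3859 CPM in the other double-mutant cells and 741 CPM in the group. Lmo2 went the other way between the first pair, at 918 and 704 CPM. The sum without Ifitm1 was not taken.

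Esam, an endothelial-type adhesion molecule of HSCs, stood at 104, 59.2, 82.02 and 25.2 CPM across Mx, NPMc+, Flt3-ITD and the double mutant. It was lowest with both lesions, 3.26-fold below Flt3-ITD, and -1.53 on the log2 scale without the group. Hlf stood at 264, 115, 128 and 90.6 CPM and Mecom at 131, 90.9, 63.4 and 42.9 CPM. Procr, at 49.4 and 32.3 CPM, was 1.53-fold lower (1.399 to 1.68), and -0.45 on the log2 scale without the group. Meis1, a homeobox cofactor of HSCs and of NPM1-mutant leukemia, was close to level at 198 and 188 CPM, with a log2 ratio of -0.08 that was 0.08 without the group.

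The opposite was seen for a few members of the same list. Mycn, a MYC family factor of stem cell growth, stood at 120.5, 126, 48.04 and 290.1 CPM. It was lowest in Flt3-ITD and 6.04-fold higher (5.66 to 6.45) with both lesions, and was found in 12.1% of Flt3-ITD cells and 45.5% of double-mutant cells at 3000 UMIs (24.4% and 64.8% without thinning). Erythroid cells gave 5 of 16 in the double mutant and 2 of 20 in Flt3-ITD. Prdm16, a chromatin regulator of HSC maintenance, stood at 10.8 and 40.4 CPM, with a log2 ratio of 2.03 in male and -0.22 in female cells. Gata3 was 2.04 higher over all cells but only 0.77 without the Tcf7+Bcl11b+ cells and 0.29 without every cell holding either factor. Cd34, whose surface protein LT-HSCs of the mouse largely lack, stood in RNA at 233, 135, 327 and 448 CPM across Mx, NPMc+, Flt3-ITD and the double mutant.

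Quiescence genes split the same way, with 5 of 32 at the floor higher, 8 lower and a median of 0.03 (2, 10 and -0.14 after TMM scaling). Cdkn1c, the p57 cell cycle inhibitor of dormant HSCs, stood at 50.9, 34.8, 26.7 and 16.5 CPM. Cdkn2c, the p18 inhibitor, was higher with both lesions at 117 CPM against 28.9 CPM, and Hes1, a Notch target, was lower at 10.5 CPM against 57.6 CPM. Cdkn1a, the p21 inhibitor, stood at 192 and 136 CPM and Gfi1, a repressor that restrains HSC cycling, at 14.7 and 32.6 CPM.

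Feedback genes of cytokine signalling lay in both directions. Past 1.5-fold, 9 of 29 at the floor were higher and 7 lower, with a median of 0.22; after TMM scaling 5 were higher and 8 lower. On the STAT5 side, Socs2, a feedback inhibitor, stood at 36.7, 36.9, 243 and 563 CPM across Mx, NPMc+, Flt3-ITD and the double mutant, high in both Flt3-ITD libraries and highest with both lesions. Cish, another STAT5 target, stood at 41.9 and 48.8 CPM, a log2 ratio of 0.22 that is no larger than that of the median gene. Pim2, a survival kinase, stood at 55.2 and 145 CPM. Bcl2, which blocks cell death, stood at 58.4 and 327 CPM with 44.8% of its UMIs in Tcf7+Bcl11b+ cells, and was 1.86 higher on the log2 scale without them.

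The list's 3 lowest members were Spry1, Dusp6 and Phlda1. Spry1, an inhibitor of receptor tyrosine kinase signalling, stood at 13.03, 28.96, 64.4 and 13.9 CPM. Dusp6, the ERK phosphatase, stood at 61.6, 42.6, 66.8 and 21.9 CPM, and Phlda1 at 49.3 and 14.9 CPM. The 3 genes were 4.63, 3.05 and 3.31-fold lower. Other MAP kinase phosphatases of the list were nearer to level, with Dusp5 at 191 and 188 CPM and Dusp2 at 312 and 265 CPM.

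Immediate-early genes, which respond within minutes to signals and stress, were the list most often lower. Of 40 members 34 were at the floor, 25 were at least 1.5-fold lower and 1 was higher, with a median log2 ratio of -0.95. Without the Tcf7+Bcl11b+ cells 24 of 34 were lower and the median was -0.94. Summed per cell at 3000 UMIs, the members gave a median of 22 UMIs in Mx (quartiles 15 and 31), 50 with NPMc+ alone (34 and 65.75), 81 with Flt3-ITD alone (60 and 106) and 51 in the double mutant (33 and 74). The Flt3-ITD library was thus the highest of the 4, and the double mutant stood above Mx.

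Nr4a1, an orphan nuclear receptor that holds HSCs in quiescence (chr15:101254269-101274795), stood at 45.6 CPM for Mx, 159 for NPMc+ alone, 659 for Flt3-ITD alone and 96.1 for the double mutant. It was 6.85-fold lower (6.57 to 7.15) in the last than in Flt3-ITD, and was found in 24.5% against 77.9% of cells at 3000 UMIs (43.7% and 93.1% without thinning). It was as low in Tcf7+Bcl11b+ cells (92.7 CPM) as in the others (96.7 CPM). The erythroid cells moved the same way, with a Nr4a1 UMI in 12 of 20 in Flt3-ITD and 0 of 16 in the double mutant. Atf3, a stress-induced repressor, stood at 6.54, 75.8, 152 and 24.9 CPM, and Maff, a small MAF factor, at 12.1, 21.8, 66.9 and 9.57 CPM. Klf2, a quiescence factor of several blood cells, stood at 94.01, 594, 1539 and 749 CPM.

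Several well-known members differed less than Nr4a1. Fos stood at 4125 and 3621 CPM, Jun at 3539.5 and 2334 CPM, and Egr1 at 743 and 345 CPM. Btg2 was near level at 592 and 551 CPM. Dusp1 (725 and 954 CPM) and Klf6 (684 and 808 CPM) were above their Flt3-ITD levels by about as much as the median gene. Id2, the 1 member past 1.5-fold upwards, stood at 11.8 and 42.8 CPM.

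Because most of the list was lower, its promoters were searched for the full cAMP response element TGACGTCA, the palindromic site bound by CREB and ATF factors. In the 250 bases before the RefSeq start sites (GRCm38.p6), 1.77% of 27025 genes with a promoter entry held it, as did 3.23% of 5258 genes at the floor. It was in 4 of 29 immediate-early genes with an entry, and in 2 of the 20 that were at least 1.5-fold lower. The 4 windows are shown because the genes that share the site differ in level change (for Maff the site lies before 1 of its listed starts): Maff was 6.99-fold lower, Ppp1r15a, a phosphatase subunit of the stress response, 1.74-fold lower, and Dusp1 and Btg2 near the median gene or level. Capitals mark the site, and each run ends at the base before the start:
Maff, chr15:79347270-79347519, + strand: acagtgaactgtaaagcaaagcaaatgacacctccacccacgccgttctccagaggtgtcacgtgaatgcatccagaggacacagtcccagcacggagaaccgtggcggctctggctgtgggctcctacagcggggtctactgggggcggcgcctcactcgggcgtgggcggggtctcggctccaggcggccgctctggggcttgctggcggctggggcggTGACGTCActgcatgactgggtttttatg
Ppp1r15a, chr7:45526269-45526518, - strand: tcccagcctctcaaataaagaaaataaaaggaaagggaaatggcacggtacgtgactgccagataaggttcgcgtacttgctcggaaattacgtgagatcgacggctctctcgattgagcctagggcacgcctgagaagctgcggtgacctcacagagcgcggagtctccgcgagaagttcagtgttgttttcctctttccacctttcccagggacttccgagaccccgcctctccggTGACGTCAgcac
Dusp1, chr17:26508473-26508722, - strand: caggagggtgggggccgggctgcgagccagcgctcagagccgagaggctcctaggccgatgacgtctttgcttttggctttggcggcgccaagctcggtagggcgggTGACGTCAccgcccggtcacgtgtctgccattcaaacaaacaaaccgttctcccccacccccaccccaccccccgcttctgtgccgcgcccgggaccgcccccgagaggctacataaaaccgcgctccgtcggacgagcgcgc
Btg2, chr1:134079156-134079405, - strand: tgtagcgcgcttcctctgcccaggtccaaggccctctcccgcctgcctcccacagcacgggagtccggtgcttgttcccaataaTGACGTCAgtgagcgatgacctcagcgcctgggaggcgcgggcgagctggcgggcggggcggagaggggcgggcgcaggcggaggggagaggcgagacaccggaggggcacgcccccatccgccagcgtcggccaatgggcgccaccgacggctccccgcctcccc
The site begins 29 bases before the start in Maff, 12 in Ppp1r15a, 143 in Dusp1 and 166 in Btg2. These are matches of letters and carry no measurement of binding.

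Targets and inhibitors of TGF-beta and BMP signalling were lower as well, with 8 of 16 at the floor at least 1.5-fold lower, 2 higher and a median of -0.67. The list shares Id1, Id2, Id3 and Klf10 with the immediate-early list. Id1, an inhibitor of differentiation factors induced by BMP, stood at 4.01, 10.97, 90.5 and 14.98 CPM across Mx, NPMc+, Flt3-ITD and the double mutant. Its relative Id3 stood at 3.29, 3.11, 57.7 and 5.34 CPM. Both were high in the Flt3-ITD library alone. Id3 was 10.8-fold lower (9.08 to 12.9), and 41.7% of what remained lay in Tcf7+Bcl11b+ cells (16.4 CPM against 3.61 CPM in the others). The co-repressor Skil stood at 102 and 23.2 CPM, the pathway's inhibitor Smad7 at 170.4 and 55.8 CPM and the decoy receptor Bambi at 62.3 and 17.9 CPM. The receptor-activated Smad1, Smad2 and Smad5 were near level or within 1.5-fold, with log2 ratios of -0.12, -0.01 and 0.50.

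**Figure D4:**
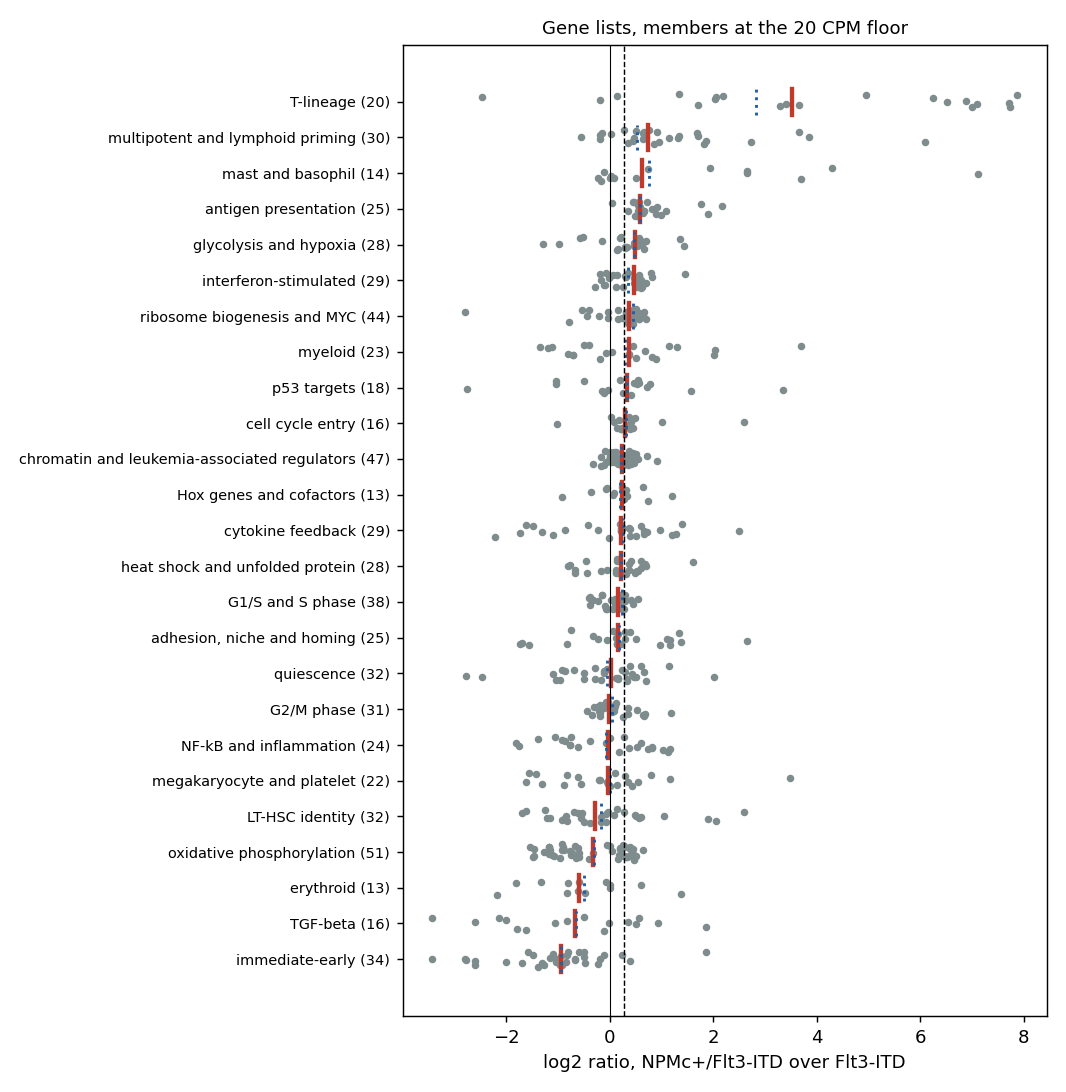
log2 ratio of the members of 25 gene lists at the 20 CPM floor (x axis; number of members in parentheses), 1 point per gene, with the median in red, the median of the same members without Tcf7+Bcl11b+ cells as a dotted blue bar and the median of all genes (0.28) dashed. The immediate-early median lies at -0.95 and the T-lineage median at 3.53.

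Antigen presentation genes were higher, with 13 of 25 at the floor at least 1.5-fold higher, 0 lower and a median of 0.59. The count was 14 of 25 without the Tcf7+Bcl11b+ cells, and 8 of 25 after TMM scaling. The MHC class II genes led the list and were low in Flt3-ITD relative to Mx. Cd74, the class II invariant chain, stood at 383, 287, 61.2 and 228 CPM, and H2-Eb1 at 122, 75.4, 18.8 and 85.1 CPM. H2-Aa stood at 214, 137, 43.9 and 149 CPM, and H2-Ab1 at 201, 161, 89.4 and 189 CPM. For these 4 genes the levels with both lesions lay nearer to those of Mx than the Flt3-ITD levels did. Class I genes differed less, with B2m, their shared light chain, at 4141 and 5759.6 CPM, while Psmb8 of the immunoproteasome stood at 469.9 and 929.9 CPM. Class I H2 genes share sequence, and their single values are uncertain.

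Interferon-stimulated genes were 8 higher, 0 lower of 29 at the floor, with a median of 0.46. After TMM scaling 3 were higher. Igtp, an interferon-inducible GTPase, stood at 30.1 and 82.8 CPM and Gbp3 at 23.9 and 41.9 CPM. Isg20, an antiviral exonuclease, stood at 23.9 and 41.8 CPM and Bst2, the virus tether tetherin, at 119.6 and 194 CPM.

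Hox genes, whose A cluster is high in NPM1-mutant leukemia, gave 3 higher and 1 lower of 13 at the floor and a median log2 ratio of 0.23. After TMM scaling 1 was higher and 1 lower, since Hoxa9 and Hoxa7 then fell short of 1.5-fold. Hoxa9 stood at 121, 151, 73.9 and 115 CPM, 1.56-fold higher (1.47 to 1.66) with both lesions than with Flt3-ITD and below its Mx level. Hoxa7 stood at 51.8, 83.8, 49.5 and 82.8 CPM and Hoxa5 at 22.8, 38.9, 17.1 and 39.4 CPM. Within the cluster Hoxa10 lay the other way at 35.6 and 27.8 CPM. Hoxa9 was lower in Tcf7+Bcl11b+ cells (75.8 CPM) than in the others (122 CPM). Npm1, the gene mutated in NPMc+, stood at 1628, 1820.5, 1724 and 2180.5 CPM; its counts do not separate the mutant from the normal transcript, so they do not check the label.

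Few genes of G1/S or G2/M passed 1.5-fold, and the median of each list lay below the 0.28 of all genes. None of 38 genes of G1/S and S phase at the floor passed 1.5-fold either way, with a median of 0.17 that became -0.01 after TMM scaling. Of 31 genes of G2/M 4 were higher and 0 lower, with a median of -0.01; after TMM scaling 1 was higher and 1 lower. Summed per cell at 3000 UMIs, the G2/M members gave a median of 5 UMIs (mean 7.4) in Flt3-ITD cells. The other double-mutant cells gave 6 (mean 8.23) and the Tcf7+Bcl11b+ cells 9 (mean 10.6), so this sum was higher while the median gene was level. Mki67, the proliferation antigen, stood at 28.4, 31.6, 31.98 and 23.7 CPM. It was found in 6.07% (5.102 to 7.16%) of Flt3-ITD cells and 3.58% (2.94 to 4.31%) of double-mutant cells at 3000 UMIs (13.2% and 9.15% unthinned), and in 11.1% of the erythroid cells. Smc4, a condensin subunit, was the furthest member at 135 and 309 CPM, with 42.98% of its UMIs in Tcf7+Bcl11b+ cells and a log2 ratio of 0.59 without them. Cdk6, the kinase whose level sets how fast HSCs leave quiescence, stood at 287, 411, 359 and 720.3 CPM. It was 2.004-fold higher over all cells, 0.82 on the log2 scale without the group, and was found in 74.8% of the remaining double-mutant cells against 53.7% of Flt3-ITD cells; erythroid cells of both libraries gave 69.4%, so this share is near that of another cell type.

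Genes of mature lineages differed by lineage. Of 14 mast cell and basophil genes at the floor 7 were higher and 0 lower, with a median of 0.63. Gzma (0.318 CPM in Flt3-ITD), Gzmb (4.09 CPM), Mcpt8 and Itgb7 were under the floor in Flt3-ITD, so their direction was fixed by it. Cpa3 stood at 16.1, 79.3, 42.3 and 549.7 CPM with 62.03% of the last in Tcf7+Bcl11b+ cells, and was still 2.58 higher on the log2 scale without them. A Cpa3 UMI was found in 31.9% of the other double-mutant cells, in 1 of their 16 erythroid cells and in 9.56% of Flt3-ITD cells; unthinned, it was in 61.7% of all double-mutant and 19.3% of Flt3-ITD cells. Mcpt8, a basophil protease, stood at 4.003 and 25.1 CPM, and the integrin gene Itgb7 at 17.2 and 108 CPM. Myeloid genes gave 8 higher and 6 lower of 23 (median 0.36). The granule protease Ctsg stood at 0.668, 36.3, 42.4 and 174 CPM and Ms4a3, a marker of granulocyte-monocyte progenitors, at 6.83, 94.3, 20.6 and 8.12 CPM.

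Megakaryocyte and erythroid genes were more often lower than higher. Of 22 megakaryocyte and platelet genes at the floor 3 were higher and 7 lower, with a median of -0.04. Without the Tcf7+Bcl11b+ cells, which were low in these genes, 3 were higher and 6 lower, and without every cell holding either factor 3 and 4 of 22. Selp, P-selectin, stood at 20.6 and 6.97 CPM and Aldh1a1, a retinoic acid synthesis enzyme, at 24.1 and 8.97 CPM. Of the 3 higher members, Serpine2 differed most, at 3.32 and 37.3 CPM, with 66.4% of its UMIs in Tcf7+Bcl11b+ cells. The erythroid list gave 2 higher and 7 lower of 13 and a median log2 ratio of -0.60. Without the group it was 1 and 5 of 12 (median -0.51), and without cells holding either factor 1 and 3 of 12 (median -0.41). All genes in that last setting gave 831 higher and 467 lower of 6707 (median 0.28). Apoe, a lipid carrier also made by HSCs, had the largest loss in share of cells within it: it stood at 874, 1729, 877 and 194 CPM and was found in 72.97% of Flt3-ITD cells, 28.6% of the other double-mutant cells and 9.67% of the Tcf7+Bcl11b+ cells at 3000 UMIs, and in 17 of 20 and 12 of 16 erythroid cells. The Apoe log2 ratio was -2.63 in male and -0.19 in female cells. Cells called erythroid numbered 20 and 16.

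Genes with the shortest transcripts had lower ratios than longer ones. The median log2 ratio was -0.92 over 196 genes with a median transcript length of at most 500 nt, 0.17 over 686 genes of up to 750 nt, and between 0.24 and 0.32 in the 4 longer classes. Of the 301 lower genes 297 had a length, and 165 of these were at most 750 nt. Ribosomal protein genes, 83 at the floor, had a median of -0.70 and a range of -2.49 to 0.41, with 29 at least 2-fold lower and 0 higher. Rps27rt and Rpl37rt, retrotransposed copies of ribosomal protein genes, stood at 363 and 38.5 CPM and at 177 and 15.5 CPM. Reads of such copies cannot be told from their source genes with certainty.

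**Figure D5:**
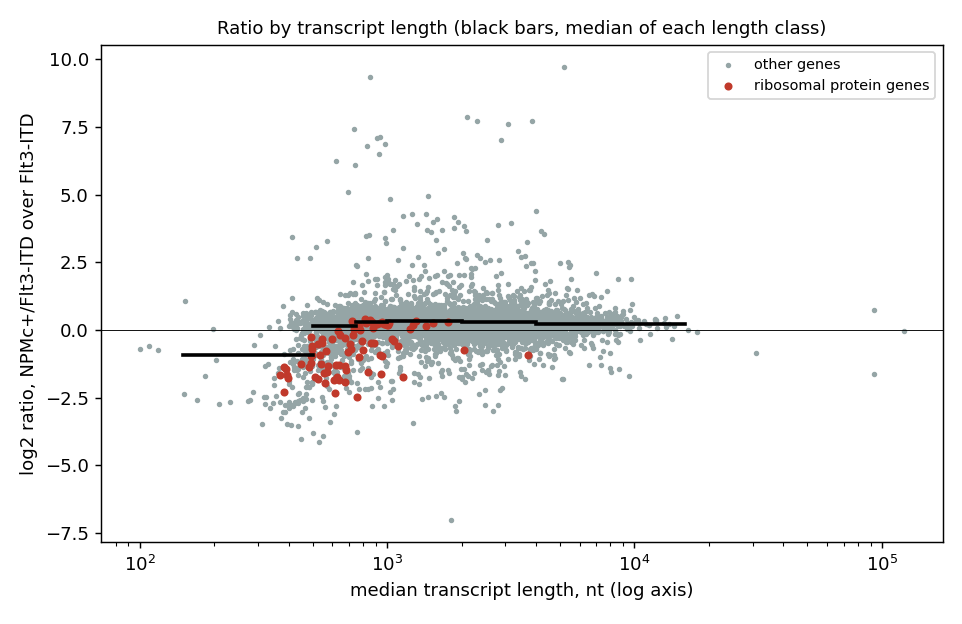
log2 ratio of each gene at the floor (y axis) against its median transcript length in nt (x axis, log), with ribosomal protein genes in red and the median of each length class as a black bar. The bar for at most 500 nt lies at -0.92, below the bars of the longer classes.

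The same length pattern runs through the respiratory chain list. Past 1.5-fold, 24 of 51 were lower and 1 was higher, with a median of -0.33. Small subunits led: Cox6c of complex IV stood at 483 and 165 CPM, Cox7c at 558 and 200.3 CPM, Ndufs5 of complex I at 130.3 and 47.1 CPM and Ndufa1 at 126 and 45.8 CPM. Their median transcripts are 606, 540, 562 and 419 nt. Over genes above 1000 nt alone the list's median was 0.11, against 0.09 for all genes of that length, a setting chosen after seeing the data. The immediate-early median in that setting was -1.12, the LT-HSC median -0.74, the lymphoid priming median 0.63 and the antigen presentation median 0.38. CPM totals there were summed over those genes only, which lowered all ratios, so these medians are to be read against 0.09. The part of transcript length in single-gene values was not tested.

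Glycolysis and hypoxia genes gave 6 higher and 2 lower of 28 and a median log2 ratio of 0.50; after TMM scaling 2 were higher and 4 lower. The aldolase Aldoc stood at 25.7 and 70.02 CPM and the oxygen sensor Egln3 at 17.8 and 45.4 CPM, while hexokinase Hk2 stood at 29.1 and 11.9 CPM. Ribosome biogenesis and MYC genes gave 4 higher and 2 lower of 44 (median 0.37), and 0 and 4 after TMM scaling. Polr1b, a subunit of RNA polymerase I, stood at 15.9 and 25.8 CPM. Of 28 heat shock and unfolded protein genes 5 were higher and 4 lower (median 0.21), and 1 and 6 after TMM scaling. Xbp1, the secretory stress factor, stood at 75.4 and 231 CPM. The p53 targets gave 4 higher and 3 lower of 18 (median 0.33), or 3 and 4 after TMM scaling, and Plk2, a polo-like kinase, was lowest at 8.53 CPM against 57.4 CPM.

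Inflammatory NF-kB genes were mixed, with 7 higher and 10 lower of 24 and a median of -0.03. The chemokine Cxcl2 stood at 69.9 and 20.7 CPM, the inhibitor Nfkbid at 64.1 and 18.2 CPM and Ier3 at 503 and 193 CPM, while Cd69, an activation marker that retains cells in tissue, stood at 13.1, 119.9, 149 and 333 CPM. Adhesion and niche genes gave 7 higher and 5 lower of 25 (median 0.16, and -0.01 after TMM scaling), and 3 and 5 of 23 without the Tcf7+Bcl11b+ cells. Emcn, the sialomucin endomucin of HSCs, stood at 21.7 and 6.56 CPM. The 47 chromatin and leukemia-associated regulators at the floor gave 2 higher and 0 lower (median 0.24): the metabolic enzyme Idh1 at 23.2 and 43.9 CPM and the ubiquitin ligase Cbl at 40.2 and 66.1 CPM. Cbl was 1.19-fold higher without the Tcf7+Bcl11b+ cells, which held 37.4% of its UMIs, and 1 member was then past 1.5-fold. Cell cycle entry genes gave 2 higher and 1 lower of 16 (median 0.29), led by Mycn.

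The sexes were compared because their shares differed. Male cells alone, 987 in Flt3-ITD and 2425 in the double mutant, gave 290 genes at least 2-fold higher and 301 lower, with 264 and 280 of the genes called over all cells among them. Female cells, 773 and 179, gave 230 and 303, with 79 and 237 of those genes. Within female cells Nr4a1 (-2.61), Atf3 (-2.14), Id3 (-3.35), Mycn (1.90), Cd48 (1.37), Cpa3 (3.56) and Cd74 (2.62) kept the direction seen over all cells on the log2 scale. Flt3 (0.11), Cd34 (0.03) and Gata3 (-0.13) were at or below the median gene. Dntt (1.33), Xlr (2.64) and Akr1c12 (2.65) were higher in female cells too, but by less than in male cells (3.71, 4.76 and 4.08). Male and female cells come from different animals, so sex and animal cannot be told apart here.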

How the data were processed

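The authors deposited 1 table of raw UMI counts per gene and barcode for each of 4 libraries, made from 10x 3' v2 reads; the submitters' processing notes name STARsolo, STAR 2.7.0c and mm10, and the deposited barcodes held at least 101 UMIs. The counts were used as deposited. Members, lists and named genes were chosen with earlier results of these data known. UMIs were summed over kept cells, and CPM ratios were given exact 95% Clopper-Pearson intervals (scipy 1.17.1) for counting error only. A gene with 0 UMIs took 3 counts. For shares, each cell was thinned to 3000 UMIs at random, which left out 218 Flt3-ITD and 330 NPMc+/Flt3-ITD cells. Erythroid cells had Klf1, Car1 and at least 5 UMIs of erythroid markers. TMM factors came from edgeR 4.0.16 (0.941 for Flt3-ITD, 1.062 for NPMc+/Flt3-ITD), used for scaling only. Transcript lengths and positions came from GENCODE M21, which held 25415 of 26687 symbols. Of 942 list names, 932 matched. No doublet caller was run; cells with both Xist and Y-linked UMIs, 227 and 66, were left out as an alternative. Steps were tested on simulated data.

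Named genes were the 12 highest and 12 lowest ratios, the 8 highest and 8 lowest without Tcf7+Bcl11b+ cells, the 8 largest gains and losses in share of cells, per list the 4 members with the largest absolute log2 ratio, and 20 genes always named. Fos, Jun, Egr1, Btg2, Dusp1, Klf6, Id2, Plac8, Cd53, Pim2, Dusp2, Dusp5, Smad1, Smad2, Smad5, Smad7, Bambi, Hoxa10, B2m, Psmb8, Mcpt8, Kit and the CD3 genes fall outside this rule; they and the promoter search were picked with the values in view. Some genes that the rule names are not reported here.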

Additional observations from a re-analysis of the deposited data

Results flagged for a closer look

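Genes that differed at least 2-fold in opposite directions when NPMc+ was added to Flt3-ITD and when NPMc+ was compared with Mx are listed here; the difference between the 2 contrasts was not tested, each rests on 1 library a side, and all 4 libraries enter it. Nr4a1 was -2.78 on the log2 scale on the Flt3-ITD background and 1.80 over Mx. Atf3 was -2.61 and 3.53, Klf2 -1.04 and 2.66, Plk2 -2.75 and 1.22, and Spry1 -2.21 and 1.15. For these 5 genes of early response and growth control, the Flt3-ITD library had the highest level; Mx had the lowest except for Plk2, which was lowest in the double mutant. Among lineage genes, Selp was -1.56 and 1.01, Ms4a3 -1.34 and 3.79, and Flt3 went the other way at 1.15 and -1.22. Ngp, a neutrophil granule gene, was 2.01 and -6.21, with levels of 23.7, 0.319, 5.09 and 20.6 CPM across Mx, NPMc+, Flt3-ITD and the double mutant, NPMc+/Flt3-ITD. It rests on few cells: an Ngp UMI was found in 0.769% of double-mutant and 0.276% of Flt3-ITD cells at 3000 UMIs, and double-mutant cells with a single sex call held 2.09 (male) and 2.62 (female) CPM, so most of its UMIs lay in cells without one. Aqp1, a water channel of red cells and endothelium, differed in opposite directions in male (-2.22) and female (1.31) cells, each by at least 1.5-fold with an interval that excluded no difference; the difference between the sexes was not tested.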

How the results depend on the processing

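With 1 library a side, no result has a check between animals. The 289 higher and 301 lower genes became 603 and 590 at a floor of 5 CPM, 1589 and 2005 with no floor but at least 10 UMIs, and 152 and 211 at a floor of 50 CPM. They stayed within 1.5 times under every other setting run: 216 and 381 after TMM scaling, 277 and 429 with totals that leave out mitochondrial and ribosomal protein genes, 217 and 285 without cells holding Tcf7 or Bcl11b, 353 and 311 after thinning, and 254 and 206 over transcripts above 1000 nt, a setting chosen after seeing the data, like the list medians in male cells. Of 96 named genes at or past 2-fold, none changed direction except in female cells, where 7 did on the log2 scale: Gata3 (-0.13), Prdm16 (-0.22), Gfi1 (-0.18), Aldh1a1 (0.12), Aqp1 (1.31), Ngp (-2.43) and Perp (-0.39). Of the differences in share of cells, that of Meis1 was 1.11 percentage points without the Tcf7+Bcl11b+ cells and that of Cd34 was -2.86 without thinning, both reversed. Depth limits values of genes near the floor and of the 179 female NPMc+/Flt3-ITD cells. No paired analysis was possible because each genotype has 1 library.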
